A study of Mus musculus with 12 samples.

Results

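The 7 genes described here encode neuronal voltage-gated sodium channel subunits: the pore-forming alpha subunits Scn1a, Scn2a, Scn3a and Scn8a, and the accessory beta subunits Scn2b, Scn3b and Scn4b. They were taken by gene symbol from the features to which the array annotation gives exactly 1 symbol, and they are 7 of 30142 genes tested. Each is measured by 1 feature, and the annotation writes Scn2a under its older symbol Scn2a1. The study used laser capture microdissection, which cuts chosen tissue areas out of thin sections under a microscope, on the hippocampus of 3 male Amigo2-EGFP reporter mice (strain given as Amigo2-GFP C57BL/6J) aged 6 to 8 weeks and taken from separate litters. Amigo2 is a gene enriched in CA2, and the fluorescent reporter marks that area. From each brain 4 pieces were captured: the pyramidal cell body layer of CA1 (group CA1_CB), the stratum radiatum or dendritic layer of CA1 (CA1_DE), and the same layers of CA2 (CA2_CB and CA2_DE). Each group has 3 arrays, 12 in all, and all groups share the genotype, the sex and the age range. The amplified RNA was hybridised to Affymetrix whole-transcriptome arrays, in a pilot that preceded RNA sequencing.

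Sodium channels open on depolarisation and carry the inward current of the action potential. An alpha subunit forms the pore, and beta subunits, which have a single membrane-spanning segment and an immunoglobulin fold outside the cell, change its gating, its surface level and its anchoring. In hippocampal pyramidal neurons the channels are densest at the axon initial segment, where ankyrin-G holds them, and are also present at lower density in the soma and apical dendrites. The cell body layer holds the somata of the pyramidal neurons, while the stratum radiatum holds apical dendrites of pyramidal cells together with interneurons, glia and vessels.

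In the mouse genome (build GRCm38.p6), Scn3a (chr2:65457118-65567591), Scn2a (chr2:65620764-65767447) and Scn1a (chr2:66270781-66440837) lie in a cluster on chromosome 2, and Scn8a lies at chr15:100869863-101045938. On chromosome 9, Scn3b lies at chr9:40269216-40291618, Scn2b at chr9:45117876-45130070 and Scn4b at chr9:45138624-45154155. Scn2b and Scn4b are neighbours, with 8.6 kb between them, and both are read from the forward strand. The RefSeq promoter table holds 7 start sites for 5 of the 7 genes, with no entry for Scn3a or Scn3b. The 250 bases before the start of Scn2b and of Scn4b are printed because these genes are adjacent and their upstream sequences differ widely. Both read 5' to 3', and capitals mark each CG dinucleotide.
Scn2b, chr9:45117626-45117875, forward strand: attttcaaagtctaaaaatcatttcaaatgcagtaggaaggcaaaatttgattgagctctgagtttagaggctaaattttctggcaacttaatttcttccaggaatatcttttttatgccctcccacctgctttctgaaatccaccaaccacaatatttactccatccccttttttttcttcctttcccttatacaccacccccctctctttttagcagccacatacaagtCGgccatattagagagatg
Scn4b, chr9:45138374-45138623, forward strand: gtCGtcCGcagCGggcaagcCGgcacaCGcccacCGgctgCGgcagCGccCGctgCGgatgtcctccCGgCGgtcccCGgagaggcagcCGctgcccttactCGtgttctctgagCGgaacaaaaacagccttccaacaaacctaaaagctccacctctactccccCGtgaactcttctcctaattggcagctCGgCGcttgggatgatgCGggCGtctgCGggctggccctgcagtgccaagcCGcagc
The Scn2b window held 1 CG and 38.4% G or C, and the Scn4b window held 23 CG and 66.0% G or C. Over 32851 promoter windows of the same length, 18.8% held no more CG than Scn2b and 13.3% held at least as many as Scn4b, with a median GC content of 52.4%. No window of the 5 genes held the GC box letters GGGCGG on either strand, which 32.7% of all windows hold. TATAAA, searched on both strands, was found upstream of 1 of the 2 Scn2a start sites, against 12.4% of all windows. These counts describe the letters only.

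Across the 12 arrays the median of all features lay between 5.68 and 5.88 on the log2 scale, and no array was a copy of another. All 6 CA1 arrays carry run number 938 and all 6 CA2 arrays run number 907, so a difference between regions and one between runs cannot be told apart, whereas each layer comparison lies within 1 run. In 3 CA2 arrays, CA2_CB replicate 1 and CA2_DE replicates 2 and 3, transcripts typical of oocytes stood at a median log2 value of 7.23 to 7.44, against 5.61 to 5.96 in the other 9. The source of those transcripts was not tested, and results that change without these arrays are given beside them. The captured cell body layers carried the markers of their labels. Of 8 CA2 pyramidal markers, 7 were called higher in CA2 than in CA1 cell bodies, and 5 of 7 CA1 markers were called lower. Over all genes 10.6% were called higher in that comparison and 10.5% lower. Between the dendritic layers, 3 of 8 CA2 markers were called higher in CA2 and 1 lower, and 4 of 7 CA1 markers were called lower. The shares of all genes there were 11.6% higher and 18.6% lower. Against the cell bodies of the same region, markers of other cell types were higher in the dendritic layers. These were 12 of 12 astrocyte genes, 10 of 10 measured oligodendrocyte genes, 11 of 11 microglial genes and 10 of 10 endothelial genes in both regions. Of all genes, 28.3% were called higher in CA1 dendrites and 16.2% in CA2 dendrites. As a yardstick of level, 155 external control features were used, which are probes for spike-in RNAs with array medians of 5.10 to 5.40. Whether those RNAs were present was not tested, so their 95th percentile is not a measured floor. Scn1a, Scn2a, Scn8a, Scn2b and Scn3b exceeded this percentile on 12 of 12 arrays. Scn3a did so on 6 arrays and Scn4b on 1. Most Scn4b values thus lie within the range of these controls, and its differences may be compressed.

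**Figure D1:**
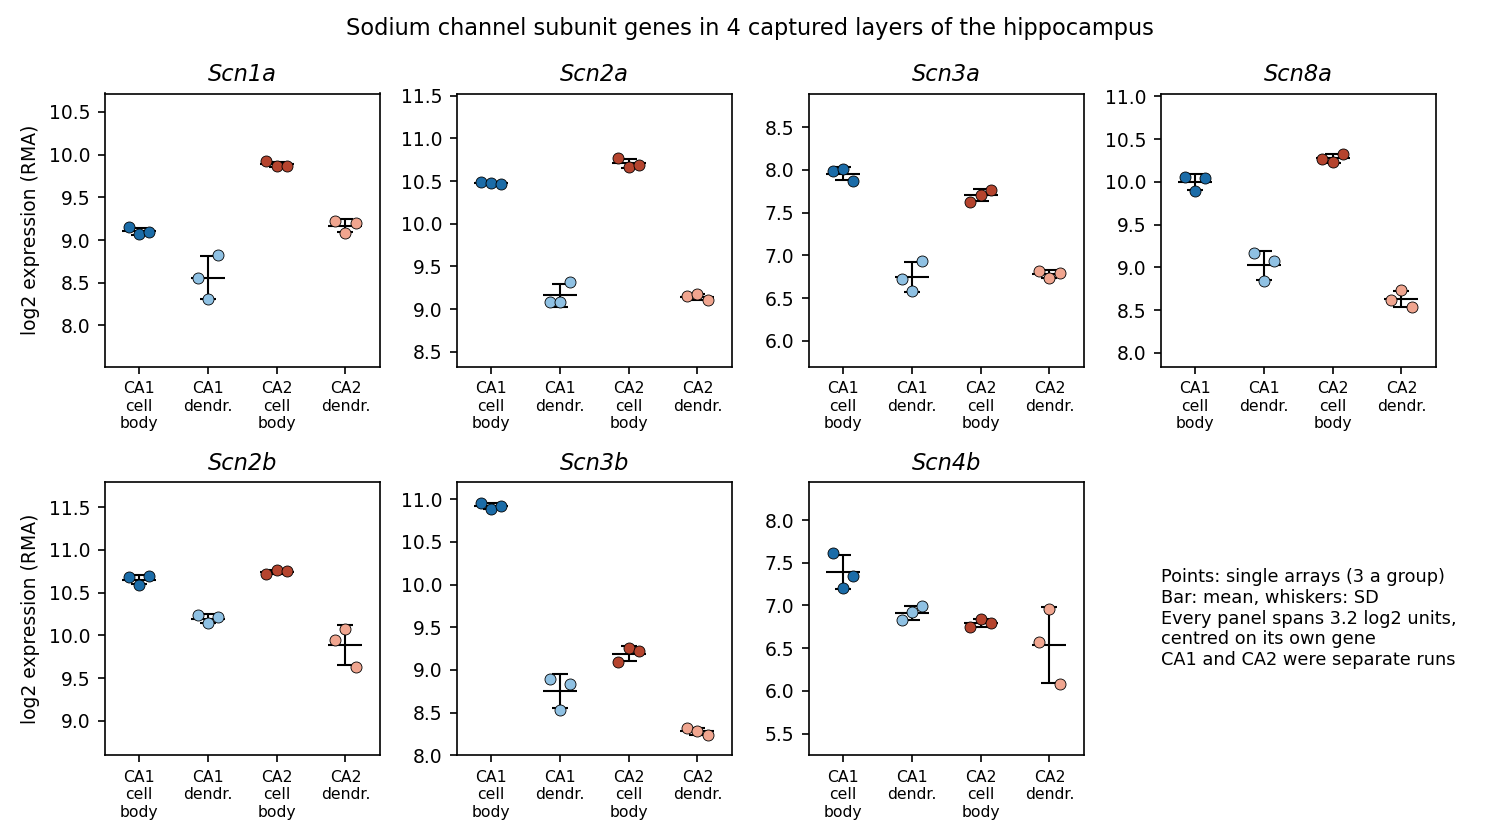
Deposited log2 array value of each sodium channel gene (vertical axis of each panel) on the 3 arrays of each layer and region; points are arrays and bars are group means. Cell body arrays lie above dendritic arrays of the same region for every gene and region except Scn4b in CA2, and Scn3b in CA1 cell bodies (10.88 to 10.96) stands well above its other groups.

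In CA1, transcripts of all 7 sodium channel genes were lower in the dendritic than in the cell body layer. Scn3b showed the largest difference, at 4.49-fold, followed by Scn2a, Scn3a and Scn8a, while Scn1a, Scn2b and Scn4b differed by less than 1.5-fold. All 7 were called lower at an adjusted p under 0.05 in limma's moderated test with Benjamini-Hochberg adjustment over all genes, where 18.5% of all genes were called lower, 28.3% higher and 46.9% in either direction. For each of the 7, all dendritic arrays lay below all cell body arrays, which held for 20.4% of all genes, while 34.7% had all dendritic arrays above. Their median log2 difference was -0.97, against a median over all genes of 0.12.

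In CA2, 6 of the 7 genes were lower in the dendritic layer, all but Scn4b, where 17.8% of all genes were called lower, 16.2% higher and 34.0% in either direction. For the same 6 all dendritic arrays lay below all cell body arrays, which held for 25.7% of all genes, while 21.7% had all dendritic arrays above. Here Scn8a and Scn2a led, with 3.13-fold and 2.96-fold differences, and Scn3b differed by 1.87-fold. The median log2 difference of the 7 genes was -0.91, against -0.03 over all genes. The 6 genes called lower in CA2 were called lower in CA1 too; 12.2% of all genes were called lower in both regions, and 14.8% had all dendritic arrays below in both.

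In tissue pieces of this kind, fewer cells of a type and less RNA per cell cannot be told apart. Of 7 measured pyramidal neuron markers, 4 fell and 1 rose from cell bodies to dendrites in CA1, and 6 fell and 1 rose in CA2. The median log2 difference was -0.97 in CA1 and -0.91 in CA2 for the sodium channel genes, and -0.33 and -1.17 for these markers. Their mean log2 level per array ran from 9.69 to 9.83 in CA1_CB, 9.21 to 9.37 in CA1_DE, 9.91 to 9.97 in CA2_CB and 8.82 to 8.94 in CA2_DE. The lowest difference in this list was that of Neurod6, a transcription factor of pyramidal neurons, at -2.57 in CA1 and -3.18 in CA2 on the log2 scale. The highest was that of Camk2a, at 0.71 and 0.68. Interneuron markers mostly rose, with 13 of 17 rising and 2 falling in CA1, and 12 rising and 1 falling in CA2. Their mean levels were 7.54 to 7.71 in cell body arrays and 8.35 to 8.80 in dendritic arrays. The part of these cell types in the sodium channel results was not tested.

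**Figure D2:**
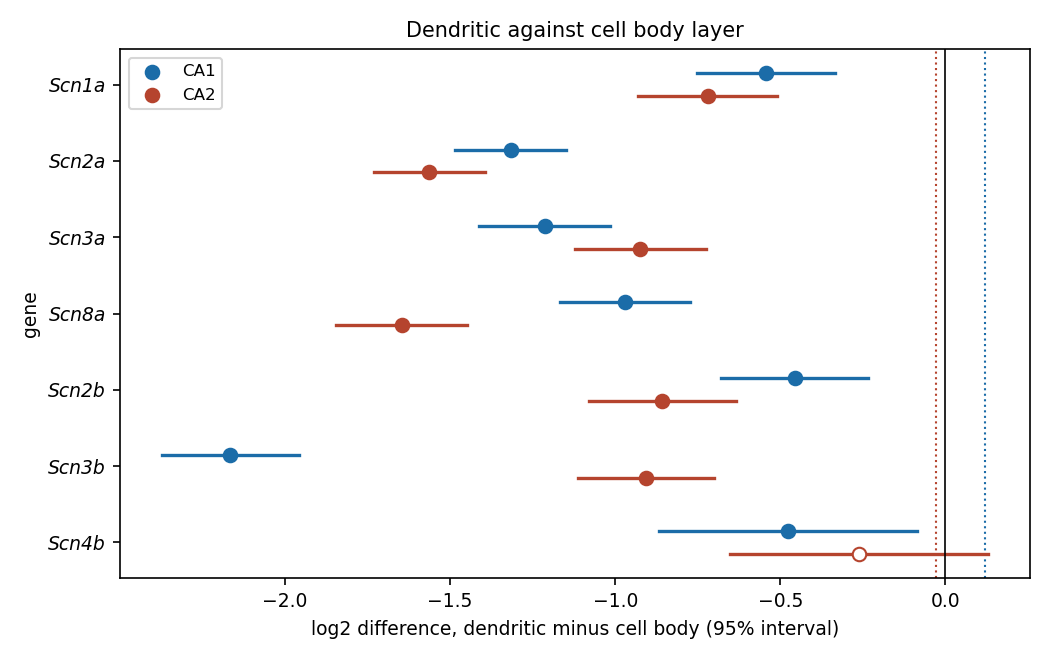
Log2 difference between dendritic and cell body layer (horizontal axis) for each sodium channel gene in CA1 and in CA2, with 95% intervals from the linear model; filled points were called, open points were not, and dotted lines are the medians over all genes. Scn3b lies farthest to the left in CA1 (-2.17) but not in CA2 (-0.91), whereas Scn8a lies farther left in CA2 (-1.65) than in CA1 (-0.97).

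Scn2a encodes the alpha subunit most abundant in forebrain excitatory neurons, where it occupies the proximal axon initial segment and the dendrites. Its log2 values were 10.49, 10.48 and 10.47 in CA1 cell bodies and 9.09, 9.08 and 9.32 in CA1 dendrites. In CA2 they were 10.77, 10.67 and 10.69 in cell bodies and 9.15, 9.18 and 9.11 in dendrites. Every cell body array thus lay above every dendritic array, and the dendritic arrays of the 2 regions overlapped. The layer difference was -1.32 (SE 0.08, limma adjusted p = 5.37e-07) in CA1 and -1.56 (SE 0.08, adjusted p = 1.44e-07) in CA2. The dendritic layer thus held 40.1% of the cell body level in CA1 and 33.8% in CA2. In CA2 249 of 30142 genes (0.826%) had a lower layer difference. The difference between the regions in this layer effect, -0.25 (95% interval -0.49 to -0.01), did not pass the adjusted threshold (limma adjusted p = 0.149); after quantile normalization it was -0.34 and passed (adjusted p = 0.0352).

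Scn8a encodes the alpha subunit of the distal axon initial segment and of mature nodes of Ranvier, which carries persistent and resurgent current. Its values were 10.06, 9.89 and 10.04 in CA1 cell bodies and 9.17, 8.84 and 9.07 in CA1 dendrites. CA2 cell bodies gave 10.27, 10.23 and 10.33, and CA2 dendrites gave 8.62, 8.73 and 8.54. CA2 thus had both the highest and the lowest values, and no group overlapped another. Dendrites held 51.1% of the cell body level in CA1 (log2 difference -0.97, SE 0.09, limma adjusted p = 1.17e-05) and 31.9% in CA2 (-1.65, SE 0.09, adjusted p = 2.99e-07). In CA2 185 genes (0.614%) had a lower difference. The layer difference was larger in CA2 than in CA1 by 0.68 on the log2 scale (interaction -0.68, SE 0.13, adjusted p = 0.00866), a comparison in which 11.6% of all genes were called, 6.81% with a value below 0 and 4.81% above. Pyramidal markers moved in the same direction, with 4 of 7 called lower for this interaction and 0 higher; their part was not tested. The Scn8a call was lost when all arrays of replicate 1 (-0.64, adjusted p = 0.089) or of replicate 3 (-0.61, adjusted p = 0.0835) were left out, and passed when the 3 arrays high in oocyte transcripts were dropped (-0.85, adjusted p = 0.0405), which leaves 1 CA2_DE array that is assumed to vary like the other groups.

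Scn1a encodes the alpha subunit known above all for its role in fast-spiking inhibitory interneurons. Its values were 9.15, 9.07 and 9.09 in CA1 cell bodies and 8.55, 8.31 and 8.82 in CA1 dendrites. CA2 cell bodies gave 9.92, 9.87 and 9.87, and CA2 dendrites gave 9.22, 9.08 and 9.20. CA2 dendrites reached the level of CA1 cell bodies, and these groups overlapped, while CA1 dendrites were lowest and CA2 cell bodies highest. The layer differences were the smallest among the alpha subunits, at -0.54 (SE 0.09, limma adjusted p = 9.09e-04) in CA1 and -0.72 (SE 0.09, adjusted p = 1.48e-04) in CA2. Dendrites held 68.6% and 60.7% of the cell body level. Gad1, which makes the transmitter of interneurons, was higher in dendrites by 1.05 in CA1 and 1.57 in CA2 on the log2 scale. Of the 17 interneuron markers measured, 13 rose and 2 fell in CA1, and 12 rose and 1 fell in CA2. The lowest layer difference among the 17 was that of Kit, at -0.93 in CA1 and -1.82 in CA2. Pvalb, the marker of fast-spiking interneurons, was picked out after its values were seen and goes against most of this list in CA1. Its values are thus a description of 1 gene and no test. It was called lower in CA1 dendrites (-0.57, limma adjusted p = 0.00324) and was not called in CA2 (-0.14, adjusted p = 0.452). Its CA2 minus CA1 difference was 0.37 in cell bodies (adjusted p = 0.0583) and 0.80 in dendrites (adjusted p = 0.00133). Among the 17 markers, 3 were called higher in CA2 and 2 lower in cell bodies, and 6 and 2 in dendrites. The part of these cells in the Scn1a values was not tested. The regions' layer differences were not distinguished (interaction -0.18, 95% interval -0.47 to 0.12, adjusted p = 0.373). Without the 3 arrays with oocyte transcripts the CA2 layer difference was -0.68 and no longer passed (adjusted p = 0.0597), with 1 CA2_DE array left.

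Scn3a encodes an alpha subunit that is strongest in the embryonic and early postnatal brain. Its values were 7.99, 8.01 and 7.87 in CA1 cell bodies and 6.72, 6.58 and 6.93 in CA1 dendrites. In CA2 they were 7.63, 7.71 and 7.77 in cell bodies and 6.82, 6.73 and 6.79 in dendrites. The 6 cell body arrays lay above all 6 dendritic arrays, and the dendritic groups of the regions overlapped. All 6 dendritic values lay below the external control percentile of their array, so the layer differences may be compressed. The layer difference was -1.21 (SE 0.09, limma adjusted p = 2.62e-06) in CA1 and -0.92 (SE 0.09, adjusted p = 1.67e-05) in CA2. The interaction, 0.29 (95% interval 0.01 to 0.57), did not pass (adjusted p = 0.148); without CA1_DE replicate 3 it was 0.38 and passed (adjusted p = 0.0481). Scn1a, Scn2a and Scn3a are close paralogs, and how far their probes tell them apart was not tested here.

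Scn3b encodes a beta subunit that binds the alpha subunit without a disulphide bond. It gave 10.96, 10.88 and 10.92 in CA1 cell bodies but 9.09, 9.26 and 9.22 in CA2 cell bodies. Dendrites gave 8.89, 8.53 and 8.84 in CA1 and 8.32, 8.29 and 8.24 in CA2. No groups overlapped, and CA1 cell bodies stood apart from the other 3 groups. Dendrites held 22.3% of the cell body level in CA1 (log2 difference -2.17, SE 0.09, limma adjusted p = 7.97e-08) and 53.3% in CA2 (-0.91, SE 0.09, adjusted p = 2.62e-05). In CA1 86 of 30142 genes (0.285%) had a lower layer difference. The difference between the regions in the layer effect was 1.26 (SE 0.13, limma adjusted p = 3.72e-04), with 128 genes (0.425%) above it. This call was kept in each setting tried, with 1.14 to 1.34 when arrays were left out and 1.11 (adjusted p = 0.0361) when the arrays high in oocyte transcripts were dropped, with 1 CA2_DE array left. Scn8a and Scn3b thus departed from equal layer effects in opposite directions, and they were the only 2 of the 7 genes called in this comparison.

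Scn2b encodes a beta subunit tied to the alpha subunit by a disulphide bond. Its values were 10.68, 10.59 and 10.69 in CA1 cell bodies and 10.24, 10.14 and 10.21 in CA1 dendrites. CA2 cell bodies gave 10.72, 10.76 and 10.75, and CA2 dendrites gave 9.95, 10.08 and 9.63. The groups did not overlap, although the nearest ones lay close together. The difference was -0.46 (SE 0.10, limma adjusted p = 0.00381) in CA1 and -0.86 (SE 0.10, adjusted p = 6.41e-05) in CA2, or 72.9% and 55.2% of the cell body level. After quantile normalization the CA1 value was -0.30 (adjusted p = 0.0456). The interaction, -0.40 (95% interval -0.71 to -0.09), did not pass (adjusted p = 0.0905); without CA2_DE replicate 2 it was -0.51 and passed (adjusted p = 0.04).

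Scn4b encodes the other disulphide-bound beta subunit here, whose cytoplasmic tail is associated with resurgent sodium current. Its values were 7.61, 7.21 and 7.35 in CA1 cell bodies and 6.83, 6.92 and 6.99 in CA1 dendrites. CA2 gave 6.75, 6.84 and 6.80 in cell bodies and 6.57, 6.96 and 6.08 in dendrites. Only CA1 cell bodies stood above the other groups, which overlapped, and the CA2 dendritic arrays spread widely. The CA1 difference was -0.48 (SE 0.18, limma adjusted p = 0.0469). It was no longer called with array weights (adjusted p = 0.0751), without CA1_CB replicate 1 or 3 (0.194 and 0.129), without CA1_DE replicate 1 or 2 (0.153 and 0.133), without any 1 of the CA2_CB arrays (0.0572 to 0.0625), without CA2_DE replicate 1 (0.0594) or without all arrays of replicate 1 (0.314). In CA2 the value was -0.26 (95% interval -0.65 to 0.13, adjusted p = 0.319), and without CA2_DE replicate 2 it was -0.49 and passed (adjusted p = 0.0304). The interaction was 0.22 (95% interval -0.34 to 0.77).

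Between regions, Scn1a was higher in CA2 than in CA1 in both layers and Scn3b was lower in CA2 in both. In the cell body layer, Scn1a and Scn8a were called higher in CA2 and Scn3b and Scn4b lower, 4 of 7 genes where 21.1% of all genes were called, 10.6% higher and 10.5% lower. Scn3b was 3.32-fold lower in CA2 (log2 difference -1.73, SE 0.09, limma adjusted p = 1.15e-06), and 75 of 30142 genes (0.249%) had a lower value. Scn1a was 1.72-fold higher in CA2 (0.78, SE 0.09, adjusted p = 2.53e-04), with 521 genes (1.73%) above it. These 2 calls were kept in each setting tried. Run and region cannot be told apart in these values.

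The other cell body differences were smaller. Scn4b was 1.51-fold lower in CA2 (limma adjusted p = 0.0366); it was no longer called after median centring (0.0699), without CA1_CB replicate 1 (0.165) or 3 (0.128), without CA2_CB replicate 1 (0.124), 2 (0.117) or 3 (0.0644), or without all arrays of replicate 1 (0.272) or 3 (0.0705). Scn8a was 1.21-fold higher in CA2 (adjusted p = 0.049), and this call was lost when any of the 6 cell body arrays (0.0786 to 0.176), CA1_DE replicate 3 (0.0578), CA2_DE replicate 1 (0.0595), or any whole replicate number (0.123 to 0.202) was left out. Scn2a (0.23, 95% interval 0.06 to 0.40, limma adjusted p = 0.0567) and Scn3a (-0.25, 95% interval -0.45 to -0.06, adjusted p = 0.0719) did not pass. These non-calls lie close to the threshold. Scn2a was called after quantile normalization (0.0139) or median centring (0.0178), with array weights (0.0112), a filter on dim features (0.0355), a fit of these groups alone (0.0354), a random block (0.0375) or no block (0.0325), and without CA1_DE replicate 1 (0.0499) or 3 (0.0189). Scn3a was called with array weights (0.0189), the filter on dim features (0.0465) or these groups alone (0.0494), and without CA1_DE replicate 2 (0.0469) or 3 (0.0369) or CA1_CB replicate 3 (0.0387). Scn2b differed by 0.09 (95% interval -0.13 to 0.31). The arrays of the 2 regions did not overlap for any of the 7 genes, 4 of them higher in CA2 and 3 lower, where 23.9% of all genes had all CA2 arrays higher and 19.8% had all lower. Oligodendrocyte markers were higher in CA2 cell bodies for 9 of 10 genes, and interneuron markers for 3 of 17 with 2 lower; their part was not tested.

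In the dendritic layer, Scn1a was called higher in CA2 and Scn8a, Scn2b and Scn3b lower, where 11.6% of all genes were called higher, 18.6% lower and 30.2% in either direction. Scn1a was 1.52-fold higher in CA2 (limma adjusted p = 0.00149), Scn3b 1.39-fold lower (adjusted p = 0.00516), Scn8a 1.32-fold lower (adjusted p = 0.00941) and Scn2b 1.24-fold lower (adjusted p = 0.0407), with a median over all genes of -0.11 on the log2 scale. Without the 3 arrays with oocyte transcripts, which leaves 1 CA2_DE array, assumed to vary like the other groups, only Scn8a was called (adjusted p = 0.0447). Scn1a then gave 0.64 (adjusted p = 0.0766), Scn3b -0.52 (0.0761) and Scn2b -0.28 (0.156). Scn8a was lost after median centring (-0.29, 0.0618), in a fit of these groups alone (0.081), and without all arrays of replicate 1 (0.103) or 3 (0.0866). Scn3b was lost without those of replicate 3 (-0.41, 0.0667). Leaving out 1 array ended the Scn2b call for each array but CA1_CB replicate 3 and CA2_DE replicate 2 (0.0502 to 0.135), and its difference without CA2_DE replicate 3 was -0.17. After median centring it was -0.20 (0.213), and it was not called with array weights (0.0869), in a fit of these groups alone (0.14) or without all arrays of replicate 1 (0.159) or 3 (0.199). Pyramidal markers were lower in CA2 dendrites for 5 of 7 genes and microglial markers for 9 of 11. Oligodendrocyte and endothelial markers were each higher for 7 of 10 with 0 lower, and interneuron markers were higher for 6 of 17 with 2 lower. The part of these cells was not tested.

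For Scn2a the dendritic layers of the regions differed by -0.02 (95% interval -0.19 to 0.15). For Scn3a the value was 0.04 (95% interval -0.16 to 0.23), but all 6 dendritic arrays lay below the external control percentile, so that this says little about its level there. Scn4b gave -0.38 (95% interval -0.77 to 0.01), and without CA2_DE replicate 2 it was -0.61 and passed (limma adjusted p = 0.0216). Arrays of the 2 regions overlapped for these 3 genes; of the other 4, 1 had all CA2 arrays higher and 3 had all lower, against 13.8% and 27.2% of all genes.

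**Figure D3:**
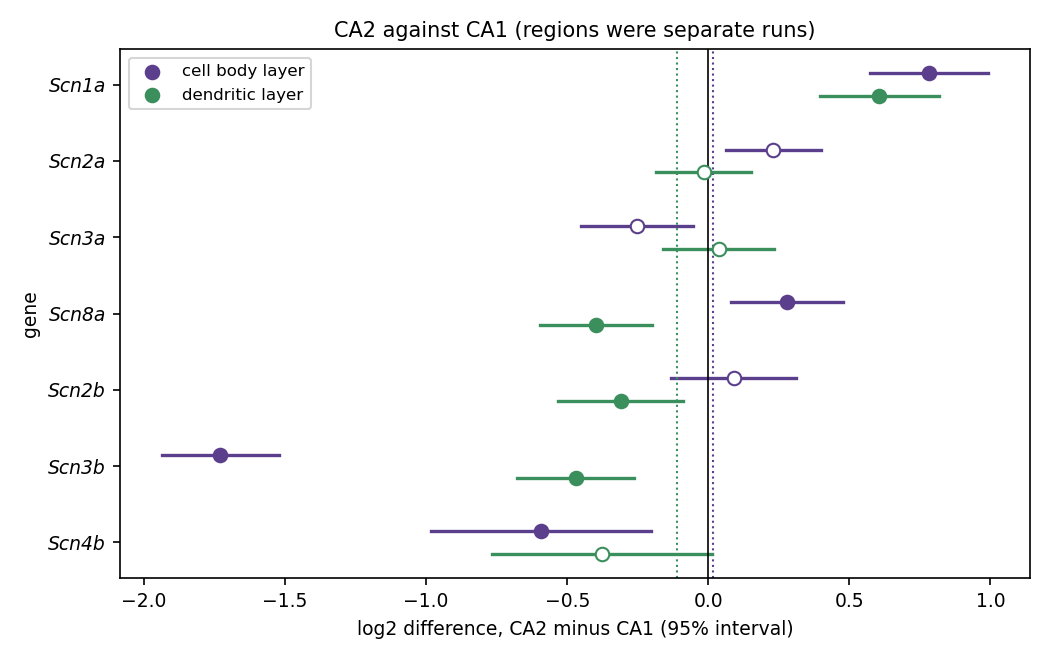
Log2 difference between CA2 and CA1 (horizontal axis) for each sodium channel gene in the cell body and dendritic layers, with 95% intervals from the linear model; filled points were called, open points were not, and dotted lines are the medians over all genes. Scn1a lies to the right in both layers (0.78 and 0.61), Scn3b to the left in both (-1.73 and -0.47), and Scn8a changes side (0.28 and -0.40).

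Because the differences were unequal, the log2 ratio of array values of 2 genes on the same array changed between groups. These are RNA values of mixed tissue pieces and do not give the proportions of channel subunits in a cell. Only the change of such a ratio between groups carries information, since different probes are not on a common scale. The Scn8a to Scn3b ratio was -0.90, -0.99 and -0.88 in CA1 cell bodies and 0.28, 0.31 and 0.23 in CA1 dendrites. In CA2 it was 1.18, 0.97 and 1.11 in cell bodies and 0.30, 0.44 and 0.30 in dendrites. From cell body to dendrite the ratio thus moved up in CA1, by 1.20 (SE 0.07), and down in CA2, by -0.74 (SE 0.07), and CA1 and CA2 dendrites lay close together. The 2 changes differed by -1.94, which is the Scn8a interaction minus that of Scn3b. This pair was chosen because these genes were called in opposite directions, so the value describes them and is no further test. With 3 arrays against 3, an exact two-sided permutation test cannot give a p under 0.1. The smallest value here was 0.14 after adjustment over all pairs of the 7 genes in the layer and region comparisons together. The ratios are therefore given as descriptions.

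Scn1a gained on Scn2a in the dendritic layer of both regions. Their log2 ratio was -1.34, -1.41 and -1.38 in CA1 cell bodies and -0.54, -0.77 and -0.50 in CA1 dendrites. It was -0.85, -0.80 and -0.82 in CA2 cell bodies and 0.07, -0.10 and 0.09 in CA2 dendrites. The groups did not overlap within a region, and the change was 0.77 (SE 0.06) in CA1 and 0.84 (SE 0.06) in CA2, with a difference of 0.07 between regions (95% interval -0.14 to 0.28).

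The genes most like each member over the 12 arrays were taken as those with the smallest root mean square difference of centred log2 values among 17800 genes searched. For Scn2a these were Slc24a2, a potassium-dependent sodium-calcium exchanger (0.0751, Pearson r = 0.995), and Dpp6, an auxiliary subunit of A-type potassium channels (0.0832). For Scn8a they were Syndig1, a synapse differentiation gene (0.0817, r = 0.994), and the neuronal splicing factor Rbfox1 (0.0882). Scn1a was closest to Eif1b (0.0749, r = 0.989), Scn3a to Klhl7 (0.0631, r = 0.995), Scn2b to Rrp12 (0.0833) and Scn4b to the phosphodiesterase gene Pde10a (0.12, r = 0.949).

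Scn3b had no neighbour as close. Its nearest genes were Cttnbp2, which encodes a cortactin-binding protein (0.185, r = 0.983), and Cntnap2, which encodes the juxtaparanodal adhesion protein Caspr2 (0.188, r = 0.991). All of these correlations describe 12 arrays that share 4 groups, so that any gene with a like layer difference scores high.

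Of the other sodium channel genes, 5 are described here. In CA1 dendrites 1 was called higher and 1 lower, and in CA2 2 were called lower. Over all genes, 28.3% were called higher and 18.5% lower in CA1 dendrites, and 16.2% and 17.8% in CA2. These shares also apply to the layer counts of the companion lists that follow. Nalcn, the sodium leak channel, differed by -0.93 in CA1 and -0.78 in CA2 on the log2 scale. Scn7a, Scn9a, Scn10a and Scn11a, which serve mainly peripheral or non-neuronal cells, exceeded the external control percentile on 0 arrays. Scn7a was the higher call in CA1 (0.26, limma adjusted p = 0.0172). It was also 1 of the 2 lower calls in CA2 (-0.30, limma adjusted p = 0.00951), beside Nalcn. Both Scn7a calls rest on array values of only 3.73 to 4.18.

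Among 12 of 17 channel partners measured (intracellular fibroblast growth factor homologues, kinases, ligases and binding proteins), 2 rose and 6 fell from cell bodies to dendrites in CA1, and again 2 and 6 in CA2. The medians were -0.21 and -0.34. Fgf14, a homologous factor that binds the channel tail at the initial segment, differed by -0.95 in CA1 and -1.26 in CA2, and Nedd4l, a ubiquitin ligase that removes channels from the membrane, by -0.88 and -1.19. Ptprz1, a receptor phosphatase that is also made by glia, was higher in dendrites by 2.60 and 2.51. Between cell body layers 7 of the 12 were called higher in CA2, among them Fgf14 at 0.48 (limma adjusted p = 0.0202), and 1 lower. Over all genes 10.6% were called higher there and 10.5% lower, and run and region cannot be told apart. With median centring, higher calls made up 74.3% of all cell body calls, against 50.3% in the main fit.

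Of 19 measured genes for the axon initial segment and node, 3 rose and 12 fell from cell bodies to dendrites in CA1, and 3 and 15 in CA2, with medians of -0.55 and -0.49. Cntnap2 differed by -1.76 in CA1 and -0.74 in CA2 and by -1.55 between CA2 and CA1 cell bodies, with an interaction of 1.02 (limma adjusted p = 0.00194). Kcna1, a potassium channel subunit of the same membrane zone, went the other way, at -0.57 in CA1, -1.49 in CA2 and 1.35 between cell bodies, with an interaction of -0.92 (limma adjusted p = 0.00431). Adam22, which encodes a receptor for a secreted neuronal ligand, differed by -1.07 and -0.70, and Ndrg1, which is also a gene of myelinating glia, was higher in dendrites by 0.997 and 1.04.

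The sodium pump genes, which restore the gradient the channels use, were the contrasting set: 4 of 6 measured were called higher in dendrites and 2 lower in both regions, with medians of 0.72 and 1.03. Fxyd1, a small regulator of the pump found in glia, differed by 2.37 in CA1 and 2.47 in CA2, Fxyd6 of the same family by 1.10 and 1.45, and the glial beta subunit Atp1b2 by 0.87 and 1.77. Atp1b1, the neuronal beta subunit, differed by -0.58 and -0.42.

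**Figure D4:**
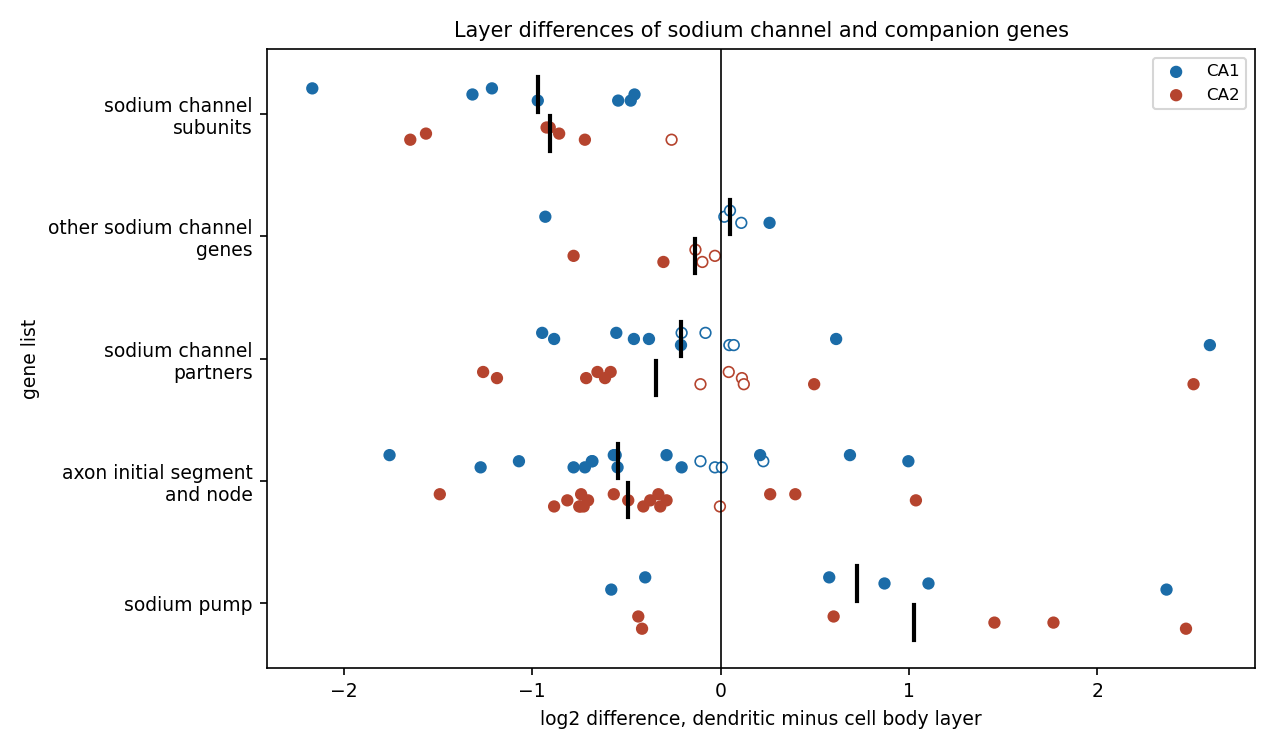
Log2 difference between dendritic and cell body layer (horizontal axis) for each measured gene of the sodium channel set and of the companion lists (rows), in CA1 and CA2. Filled points were called, open points were not, and short black bars are list medians. The sodium channel genes lie to the left of 0 in both regions, while 4 of 6 sodium pump genes lie to the right.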

How the data were processed

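RNA of 4 captured hippocampal pieces was measured on 12 arrays (3 per group) of 72688 features. The authors deposited log2 values summarised by RMA (robust multi-array average), per the submitters' processing notes; whether both runs were normalised together is not given in the sources used here. RNA input was 5 to 30 ng with integrity numbers of 6.9 to 7.5, and 5 to 7 ng were amplified, per the labels' protocols; amplification can compress differences. The number of arrays limits the precision.

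Features with 1 annotated symbol were kept, symbols were updated through RefSeq (22818 matched, 827 changed), and of several features per gene the one with the highest mean was used, giving 30142 genes. RefSeq also gave the promoter sequences and coordinates (GRCm38.p6). In R 4.3.3, limma 3.58.1 was fitted to the 12 arrays with a mean for each of the 4 groups, blocking on replicate number. 5 contrasts were tested with Benjamini-Hochberg adjustment over all genes, called at an adjusted p under 0.05, and the procedure was tested on simulated data. Intervals are 95%, unadjusted.

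The labels tie 4 pieces to each brain but do not say that a replicate number is a mouse. The p-values measure the spread between these arrays. Members and lists were chosen with earlier results of these data known. Genes named from companion lists were up to 4 per list with the smallest p in a layer comparison, and nearest genes came from the closest 3. Alternatives were other normalisations, blocks, filters, feature choices, weights, groups and left-out arrays.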

Additional observations from a re-analysis of the deposited data

Results flagged for a closer look

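For 2 genes the layer difference differed between the regions by the test of the interaction term in limma's fit. Scn8a gave -0.68 on the log2 scale, with the larger dendritic deficit in CA2, and Scn3b gave 1.26, with the larger deficit in CA1. Groups of 3 arrays were not searched for single outlying arrays.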

How the results depend on the processing

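The 35 gene values (7 genes in 5 comparisons) were recomputed in up to 25 other settings. Of 868 values, 785 kept direction and side of the threshold, 55 lost a call, 20 gained one and 8 changed sign, and 16 of the 35 held in all settings. Scn3b held in both layer comparisons, in the interaction and in cell bodies between regions. In the dendritic comparison of regions, the 4 genes called became 2 after median centring, 2 in a fit of those groups alone and 1 without the arrays with oocyte transcripts. Leaving out 1 array or a whole replicate number gave 1 to 5 genes there and 2 to 5 in cell bodies. It gave 1 to 3 for the interaction, and 6 to 7 in the CA1 and CA2 layer comparisons. Without the oocyte arrays, which leaves 1 CA2_DE array, Scn1a in CA2 layers gave -0.68 and lost its call, as described above. Scn2a in dendrites changed sign to 0.0917 with median centring and 0.0183 without the oocyte arrays, and ran from -0.0750 to 0.0800 with arrays left out, as did Scn3a from -0.0467 to 0.132 and the Scn4b interaction from -0.0167 to 0.505; the cause was not tested, and none of these was called.

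Without the replicate block, 34 of 35 values kept their call, and Scn2a in cell bodies between regions passed (0.23, adjusted p = 0.0325), making 5 genes in place of 4. Deviations of same-numbered arrays correlated above 0.1 in 1 of 18 pairs (-0.35 to 0.13), and a random block had a correlation of -0.06.

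Over all genes, calls in the dendritic comparison fell from 9105 to 3109 in a fit of those groups alone, 5579 with array weights and 1918 without the oocyte arrays, which also left 5707 of 10251 in CA2 layers and 699 of 3504 for the interaction. The share of calls that were higher moved from 60.5% to 47.7% in CA1 layers with quantile normalization and from 50.3% to 74.3% in cell bodies with median centring. In dendrites it moved from 38.3% to 53.6%, 70.3% and 53.5% with quantile normalization, median centring and without the oocyte arrays. Signal within the range of the external controls limits Scn4b and Scn3a.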
